A study of Homo sapiens with 16 samples.

Results

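TXNIP (thioredoxin-interacting protein) and the arrestin domain-containing genes ARRDC1, ARRDC2, ARRDC3 and ARRDC4 were followed in lung cancer cells given hepatocyte growth factor (HGF), the ligand of the MET receptor. The 5 genes were chosen by name as alpha-arrestins tied to glucose uptake and receptor turnover, with earlier results of these data known. All 5 passed the expression filter among 15067 genes tested of 42351 in the counts table. A549, a lung cancer line labelled as wt MET, and NCI-H596, a lung adenosquamous carcinoma line labelled as MET with exon 14 deleted (MET∆14), were deprived of serum and then left without HGF (0 h) or given it for 3, 6 or 12 h, with 2 biological replicates per condition and 16 libraries in all. According to the study, no intact MET allele is transcribed in NCI-H596. Each MET status was represented by 1 cell line, so the line and the MET status cannot be told apart. Only 0 h was sampled without HGF, so time in culture and time with HGF cannot be told apart either. The labels and the study's methods give different durations of serum withdrawal, and the study's text names EKVX, not A549, as its wt MET lung line without saying which line was sequenced, so A549 stands here on the labels.

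Total counts ranged from 10158590 to 23909304 per library. No replicate pair agreed within sampling noise (chi-square per degree of freedom from 2.851 to 36.12), and the pair of NCI-H596 libraries at 12 h differed most. Of CDKN2A and MTAP, 2 genes deleted in A549, CDKN2A was at or under 3 counts in every A549 library and MTAP was not, and the 2 summed to between 0.334 and 1.55 CPM (the counts of a gene relative to the scaled total of its library) there and to between 197 and 283 CPM in NCI-H596. All 5 epithelial markers were present in both lines. The 6 squamous markers summed to between 2349 and 3337 CPM in NCI-H596 libraries and to between 1.21 and 3.57 CPM in A549 libraries. Of 4 lung adenocarcinoma markers, SFTPB and SFTPC were at or under 3 counts in both lines, as was NKX2-1 in NCI-H596. The 4 summed to at most 2.26 CPM in A549 libraries and 0.438 CPM in NCI-H596 libraries. Summed fibroblast markers ranged from 187.5 to 346.8 CPM in NCI-H596 and from 11.1 to 19.7 CPM in A549, with COL1A2, LUM and DCN at or under 3 counts in both.

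Alpha-arrestins are adaptor proteins with an arrestin fold and a tail bearing PPxY motifs. These motifs are held by the WW domains of NEDD4 family ubiquitin ligases, which the adaptor brings to transporters and receptors at the membrane, so that the cargo is ubiquitinated and taken up or sorted. TXNIP differs from the others in binding thioredoxin, and it also lowers glucose uptake by removing glucose transporters from the surface. TXNIP and ARRDC4 are the classical targets of MondoA (encoded by MLXIP) with its partner MLX, a transcription factor pair that responds to glucose 6-phosphate, and AKT and AMP-activated kinase are known to phosphorylate TXNIP.

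The 5 genes lie on separate chromosomes (hg38, GENCODE 44). TXNIP (ENSG00000265972) lies at chr1:145992435-145996579 on the minus strand, and ARRDC4 (ENSG00000140450) at chr15:97960703-97973833 on the plus strand. No other annotated gene overlaps the exons of either. ARRDC1 (ENSG00000197070), at chr9:137605685-137615360 on the plus strand, shares 4.8% of its exon length with ENSG00000283411 on the same strand and 0.9% with ARRDC1-AS1 on the other. ARRDC2 (ENSG00000105643), at chr19:18001132-18014102 on the plus strand, shares 9.5% with ENSG00000279172 on the other strand, which had 0 counts in every library. ARRDC3 (ENSG00000113369), at chr5:91368631-91383317 on the minus strand, shares 2.9% with ARRDC3-AS1 on the other strand. Because the use of strand in counting is not given, reads in these shared stretches are uncertain, and neither antisense gene was analysed here.

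Promoters of TXNIP and ARRDC4 are printed because these genes share a regulator and yet moved in opposite directions in A549 (below 0 h for the first and above it for the second, as the values show). They are the 250 bases before the first RefSeq start (GRCh38.p14), written 5′ to 3′ on the gene's strand. Capitals mark CACGTG (the E-box), CACGNG followed after 5 bases by CNCGNG (a pair of degenerate E-boxes, the form of a carbohydrate response element), CCAAT (the CCAAT box) and GTAAACA (the forkhead motif that FOXO factors bind), searched on both strands.
TXNIP promoter, chr1:145996580-145996829, minus strand: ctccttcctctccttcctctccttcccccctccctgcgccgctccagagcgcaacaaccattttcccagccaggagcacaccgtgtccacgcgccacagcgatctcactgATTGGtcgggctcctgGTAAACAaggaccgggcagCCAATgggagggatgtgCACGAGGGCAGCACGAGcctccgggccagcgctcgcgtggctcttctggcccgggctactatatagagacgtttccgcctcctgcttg
ARRDC4 promoter, chr15:97960453-97960702, plus strand: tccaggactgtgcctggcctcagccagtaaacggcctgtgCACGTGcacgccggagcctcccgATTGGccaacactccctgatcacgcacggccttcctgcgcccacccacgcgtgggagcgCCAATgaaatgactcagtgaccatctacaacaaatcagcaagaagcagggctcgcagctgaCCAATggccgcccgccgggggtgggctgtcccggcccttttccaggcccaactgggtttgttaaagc
The TXNIP window held the paired E-box-like sites at positions -88 to -72 from the start, 1 forkhead motif at -124 to -118 and 2 CCAAT boxes. The ARRDC4 window held an E-box at -210 to -205 and 3 CCAAT boxes, and no forkhead motif in these letters. No matches overlapped.

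The paired E-box-like sites were found in 0.424% of 35116 RefSeq windows of the same length, the E-box in 6.34%, the forkhead motif in 2.98% and the CCAAT box in 32%. Windows of ARRDC1, of the second start of ARRDC2 and of the first start of ARRDC3 held 1 CCAAT box each. The window of the second ARRDC3 start held a forkhead motif on the opposite strand, with 54 of its bases in annotated exons, and the forkhead sites of TXNIP and ARRDC3 are shown with 11 bases on either side for comparison.
TXNIP forkhead site, chr1:145996686-145996714, minus strand: tcgggctcctgGTAAACAaggaccgggca
ARRDC3 forkhead site, chr5:91380109-91380137, minus strand: agcccggcactTGTTTACcacggcgcggc
A match of letters describes the window and does not show that a factor was bound in these cells.

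**Figure D1:**
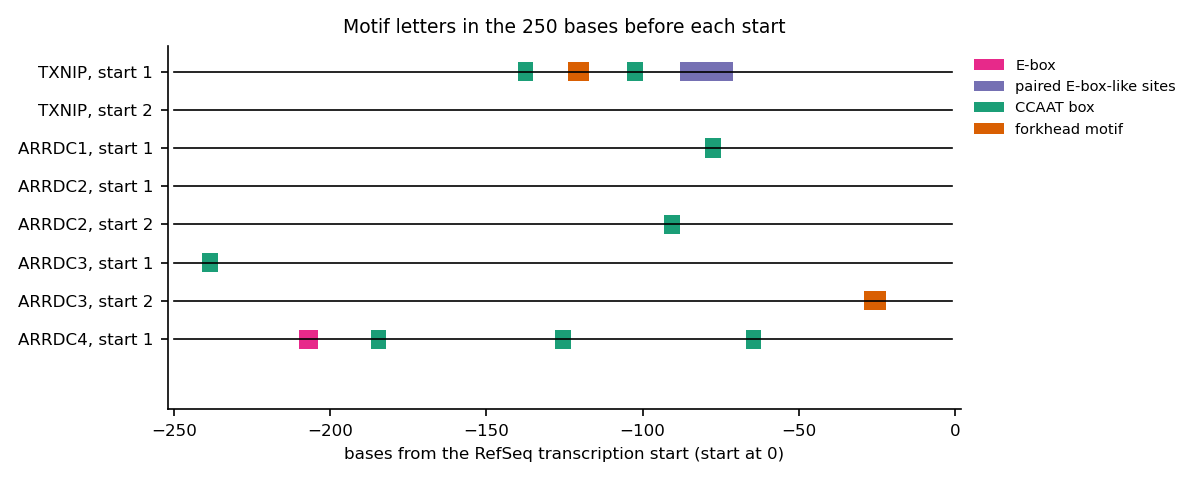
Positions of the motif letters in the 250 bases before each RefSeq start of the 5 genes, as distance in bases from the start. Each line is 1 window and each block 1 match. Paired E-box-like sites appear in the TXNIP window alone and an E-box in the ARRDC4 window alone.

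Before HGF the lines held different amounts of TXNIP, ARRDC1 and ARRDC2, while ARRDC4 differed little and ARRDC3 did not pass the test. TXNIP read 40.9 and 29.98 CPM in the A549 replicates at 0 h and 536.9 and 470.5 CPM in the NCI-H596 replicates, 14.2-fold higher in NCI-H596 (log2 difference 3.83 ± 0.172, SE; adjusted p = 3.06e-11). Every adjusted p given here is from the quasi-likelihood F test of edgeR, Benjamini-Hochberg adjusted over all genes tested, unless another tool is named. ARRDC1 was 3.03-fold higher in NCI-H596 (1.60 ± 0.154, adjusted p = 1.14e-07). ARRDC2 went the other way, 3.56-fold higher in A549 (-1.83 ± 0.0903, adjusted p = 4.46e-11). ARRDC4 was 1.24-fold higher in NCI-H596 (0.31 ± 0.115, adjusted p = 0.0215), a call that was lost without replicate 2 of A549 at 0 h (adjusted p = 0.16) or replicate 2 of NCI-H596 at 0 h (adjusted p = 0.0583). ARRDC3 did not pass the test (0.16 ± 0.131, adjusted p = 0.257), although it did without replicate 1 of A549 at 0 h (0.36, adjusted p = 0.0359). Thus 4 of 5 members were called at 0 h, a share near the 80.2% of all genes tested. Of the members 3 were higher and 1 lower in NCI-H596, beside 40.6% and 39.6% of all genes. Markers of squamous cells differed between the lines in the same libraries, and their part in these differences was not tested. In bulk libraries a change in every cell and a change in the share of cells that express a gene cannot be told apart.

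Per kilobase of exon, TXNIP was the most abundant of the 5 in NCI-H596 at 0 h, with 139.8 ± 13.0 RPKM (CPM divided by kilobases of exon, SD, n = 2). ARRDC1 followed with 9.69 ± 0.127 RPKM, ARRDC3 with 8.86 ± 1.05, ARRDC4 with 5.81 ± 0.0281 and ARRDC2 with 2.65 ± 0.00971. The gap between ARRDC1 and ARRDC3 was smaller than the SD of ARRDC3. In A549 the order was different. There TXNIP had 9.83 ± 2.14 RPKM and ARRDC2 9.45 ± 0.544 RPKM, a gap below the SD of TXNIP, while ARRDC3 had 7.89 ± 1.42, ARRDC4 4.69 ± 0.600 and ARRDC1 3.201 ± 0.279 RPKM.

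TXNIP, the brake on glucose uptake, fell in both lines. In A549 its replicates read 15.6 and 18.8 CPM at 3 h, 13.0 and 14.4 CPM at 6 h, and 24.2 and 34.7 CPM at 12 h. All 3 h and 6 h libraries lay below both 0 h libraries, whereas replicate 2 at 12 h lay above replicate 2 at 0 h. The fall was 2.07-fold at 3 h (-1.05 ± 0.181 on the log2 scale, adjusted p = 0.00105) and 2.59-fold at 6 h (-1.37 ± 0.183, adjusted p = 5.77e-05), and the value at 12 h was -0.28 ± 0.170 (adjusted p = 0.228). From 6 h to 12 h TXNIP rose 2.14-fold (1.10 ± 0.183, adjusted p = 0.00141). The spread of the 12 h replicates matters for the last time point, since without replicate 2 at 12 h TXNIP was still below 0 h (-0.55, adjusted p = 0.037). At 6 h only 518 of 15067 genes had a lower log2 fold change than TXNIP in A549.

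In NCI-H596, TXNIP read 359 and 327 CPM at 3 h, 270.2 and 269 CPM at 6 h, and 306 and 354 CPM at 12 h. Every library with HGF lay below both libraries without it. The fall was 1.47-fold at 3 h (-0.55 ± 0.150, adjusted p = 0.0109), 1.87-fold at 6 h (-0.90 ± 0.150, adjusted p = 0.000219) and 1.53-fold at 12 h (-0.61 ± 0.150, adjusted p = 0.00503). The call at 3 h was lost without replicate 1 at 0 h (adjusted p = 0.1) or replicate 2 at 3 h (0.0906), and that at 12 h without replicate 1 at 0 h (0.055) or replicate 1 at 12 h (0.0534). No step between neighbouring times with HGF passed the test in this line (adjusted p = 0.174 for 6 h against 3 h and 0.191 for 12 h against 6 h), although both did without a filter on low counts (0.0195 and 0.0495). Ordered by level, TXNIP was highest in NCI-H596 at 0 h, then at 3, 12 and 6 h of the same line, and the last 3 did not differ from their neighbours in that order (adjusted p = 0.82 and 0.191). The step from NCI-H596 at 6 h down to A549 at 0 h was 2.93 on the log2 scale (adjusted p = 4.6e-10).

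The TXNIP responses of the lines were then set against each other. Differences of the responses, NCI-H596 minus A549, were 0.50 ± 0.235 at 3 h (adjusted p = 0.178), 0.47 ± 0.236 at 6 h (0.151) and -0.33 ± 0.226 at 12 h (0.323). The F test over the 3 differences passed (adjusted p = 0.0266). That call was lost in 9 of 16 fits that left out 1 library. Of A549 these were replicate 1 at 3 h (adjusted p = 0.0791), replicates 1 (0.0725) and 2 (0.0515) at 6 h and replicate 2 at 12 h (0.11). Of NCI-H596 they were replicate 2 at 0 h (0.0515), replicate 1 at 3 h (0.0697), replicates 1 (0.0604) and 2 (0.061) at 6 h and replicate 1 at 12 h (0.118). Without both NCI-H596 libraries at 12 h the adjusted p was 0.17. TXNIP thus fell in both lines, and the test of whether it did so differently depended on single libraries.

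ARRDC4, the paralogue of TXNIP that also lowers glucose uptake, rose in A549 while TXNIP fell. Its A549 replicates read 20.8 and 17.3 CPM at 0 h, 25.5 and 28.9 CPM at 3 h, 34.7 and 39.98 CPM at 6 h, and 43.0 and 45.8 CPM at 12 h. Libraries of each time lay above both libraries of the time before, without overlap. The rise over 0 h was 1.43-fold at 3 h (0.51 ± 0.116, adjusted p = 0.00638), 1.96-fold at 6 h (0.97 ± 0.113, adjusted p = 1.45e-05) and 2.33-fold at 12 h (1.22 ± 0.112, adjusted p = 2.27e-06). At 12 h 490 of 15067 genes had a higher log2 fold change. The call at 3 h was lost without replicate 2 at 3 h (adjusted p = 0.0652). The step from 3 to 6 h passed (0.46 ± 0.110, adjusted p = 0.0352) but was lost in 12 of 16 fits with 1 library left out, at the most without replicate 2 of A549 at 6 h (0.35, adjusted p = 0.377), and the step from 6 to 12 h did not pass (0.25 ± 0.106, adjusted p = 0.157).

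In NCI-H596, ARRDC4 read 23.5 and 23.7 CPM at 0 h, 19.4 and 17.8 CPM at 3 h, 15.9 and 17.01 CPM at 6 h, and 24.6 and 24.1 CPM at 12 h. The 3 h and 6 h libraries lay below those at 0 h and the 12 h libraries just above them. ARRDC4 fell 1.43-fold at 6 h (-0.515 ± 0.114, adjusted p = 0.00191) and returned at 12 h (0.04 ± 0.113 against 0 h, adjusted p = 0.796), rising 1.47-fold from 6 h (0.56 ± 0.116, adjusted p = 0.00431). The smaller fall at 3 h (-0.35 ± 0.115, adjusted p = 0.031) did not pass in DESeq2 (0.0601) and was lost when replicate 1 or 2 at 0 h (0.105 and 0.124) or replicate 1 or 2 at 3 h (0.07 and 0.194) was left out. The responses of the lines differed by -0.86 ± 0.163 at 3 h (adjusted p = 0.00189), -1.49 ± 0.161 at 6 h (adjusted p = 8.42e-06) and -1.18 ± 0.159 at 12 h (adjusted p = 0.000108), which held in all 16 fits with 1 library left out. The higher level in NCI-H596 at 0 h was a call lost without single libraries, as given above. With HGF the order of the lines was the opposite. ARRDC4 was higher in A549 at 3 h (-0.55 ± 0.116, NCI-H596 minus A549, adjusted p = 0.000455), 6 h (-1.18 ± 0.113, adjusted p = 1e-07) and 12 h (-0.86 ± 0.110, adjusted p = 2.61e-06).

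ARRDC2, one of the less studied members, showed a transient rise in A549. Its replicates read 42.0 and 45.6 CPM at 0 h, 82.9 and 82.9 CPM at 3 h, 92.9 and 103 CPM at 6 h, and 61.9 and 60.6 CPM at 12 h. All libraries with HGF lay above those without it, and the 12 h libraries lay between those at 0 h and at 3 h. The rise was 1.89-fold at 3 h (0.92 ± 0.0812, adjusted p = 2.04e-06), 2.24-fold at 6 h (1.16 ± 0.0808, adjusted p = 1.11e-07) and 1.40-fold at 12 h (0.48 ± 0.0810, adjusted p = 0.000355). From 6 h to 12 h ARRDC2 fell by 0.68 ± 0.0786 on the log2 scale (adjusted p = 6.3e-05), while the step from 3 to 6 h did not pass (0.24 ± 0.0783, adjusted p = 0.125). It did pass without either replicate of NCI-H596 at 12 h (adjusted p = 0.0353 without replicate 1 and 0.0387 without replicate 2).

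ARRDC2 in NCI-H596 read 12.2 and 12.3 CPM at 0 h, 14.98 and 15.05 CPM at 3 h, 14.2 and 13.9 CPM at 6 h, and 14.9 and 14.8 CPM at 12 h. The libraries with HGF lay above those without, but by little. The log2 fold changes were 0.29 ± 0.0966 at 3 h (adjusted p = 0.0326), 0.19 ± 0.0956 at 6 h (0.126) and 0.27 ± 0.0973 at 12 h (0.0368). Neither call held in DESeq2 (0.0683 at 3 h and 0.0735 at 12 h). That at 3 h was lost when replicate 1 or 2 of NCI-H596 at 0 h (0.127 and 0.126) or replicate 1 or 2 at 3 h (0.106 and 0.132) was left out. That at 12 h was lost in 12 of 16 such fits, with adjusted p of at most 0.144 without replicate 1 at 0 h. The F test over all 3 times did not pass in this line (adjusted p = 0.0607), though it did without replicate 1 of A549 at 0 h (0.049) and without both NCI-H596 libraries at 12 h (0.0227). The response was smaller than in A549 by 0.63 ± 0.126 at 3 h (-0.63, adjusted p = 0.00279) and 0.97 ± 0.125 at 6 h (-0.97, adjusted p = 3.93e-05), and the difference at 12 h did not pass (-0.21 ± 0.127, adjusted p = 0.263). At 6 h ARRDC2 was 6.998-fold higher in A549 than in NCI-H596, against 3.56-fold at 0 h.

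**Figure D2:**
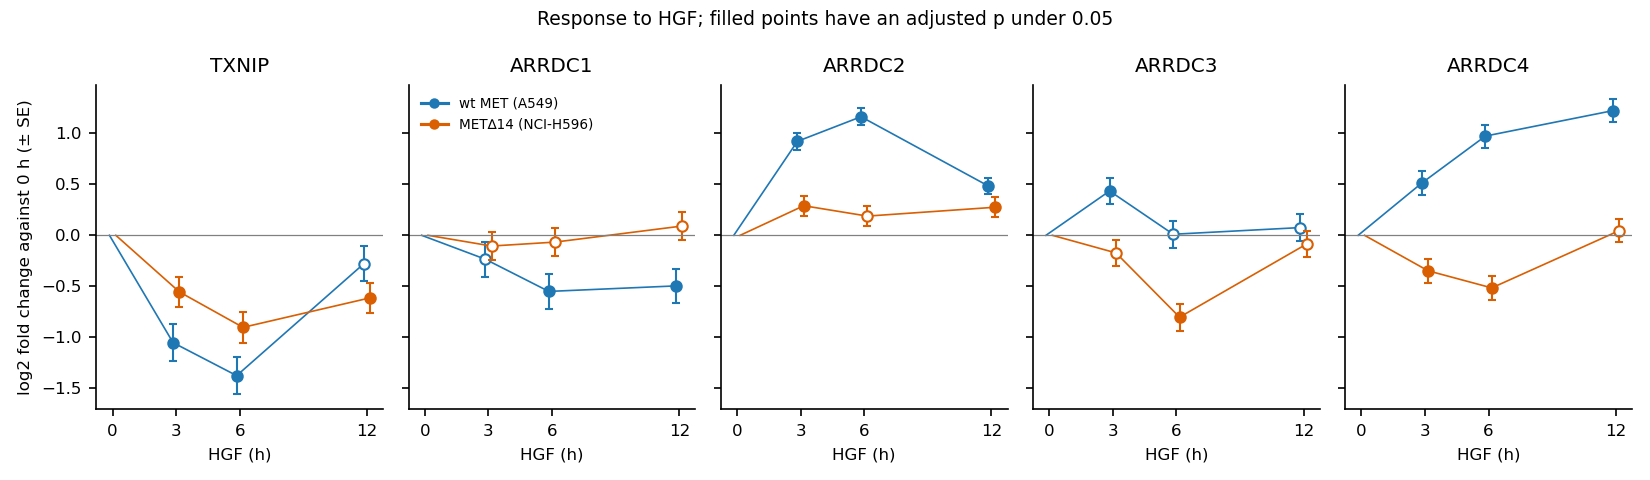
Response of each gene to HGF as log2 fold change against 0 h of the same line (± SE) at 3, 6 and 12 h. Filled points passed at the adjusted p threshold of 0.05 and open points did not. TXNIP lies below 0 in both lines, and ARRDC4 reaches 1.22 in A549 and -0.515 in NCI-H596.

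ARRDC3, which directs integrin beta4 to degradation, was about equally abundant in the lines at 0 h and at 12 h, and differed most clearly at 6 h. In A549 it read 44.4 and 34.4 CPM at 0 h, 51.0 and 55.4 CPM at 3 h, 41.5 and 37.7 CPM at 6 h, and 38.9 and 44.2 CPM at 12 h. The 3 h libraries stood above all others of the line, and the 6 h and 12 h libraries fell between the replicates at 0 h. ARRDC3 was 1.35-fold above 0 h at 3 h (0.43 ± 0.131, adjusted p = 0.0328), and the values at 6 h (0.01 ± 0.132, adjusted p = 0.977) and 12 h (0.08 ± 0.131, adjusted p = 0.701) did not pass. The 3 h call was lost without replicate 2 at 0 h (0.29, adjusted p = 0.207), replicate 1 at 3 h (0.0613) or replicate 2 at 3 h (0.169).

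NCI-H596 libraries showed a dip of ARRDC3 instead. The replicates read 47.8 and 40.5 CPM at 0 h, 39.98 and 38.3 CPM at 3 h, 27.0 and 23.8 CPM at 6 h, and 38.5 and 45.0 CPM at 12 h. Both 6 h libraries lay below every other library of either line. The fall at 6 h was 1.74-fold (-0.80 ± 0.133, adjusted p = 0.000182), with values of -0.17 ± 0.130 at 3 h (adjusted p = 0.345) and -0.08 ± 0.130 at 12 h (adjusted p = 0.652). The steps from 3 to 6 h (-0.63 ± 0.134, adjusted p = 0.00831) and from 6 to 12 h (0.72 ± 0.135, adjusted p = 0.00232) both passed. The first of them was lost without replicate 1 of NCI-H596 at 3 h (0.0623) or replicate 2 at 6 h (0.114). The responses of the lines differed by -0.81 ± 0.187 at 6 h (adjusted p = 0.00397). The difference at 3 h (-0.61 ± 0.185, adjusted p = 0.0337) was lost without replicate 2 of A549 at 0 h (0.124), replicate 1 (0.0509) or 2 (0.11) of A549 at 3 h, replicate 1 of NCI-H596 at 0 h (0.136), or replicate 1 (0.0689) or 2 (0.0929) of NCI-H596 at 3 h. At 12 h the difference was -0.16 ± 0.185 (adjusted p = 0.59) and the levels of the lines were the same within error (0.00 ± 0.131, adjusted p = 0.98).

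ARRDC1, which recruits the ESCRT protein TSG101 to the plasma membrane and drives the release of small vesicles, had the lowest counts in A549, from 118 to 178 per library. There it read 12.9 and 11.4 CPM at 0 h, 11.02 and 9.54 CPM at 3 h, 8.35 and 8.21 CPM at 6 h, and 7.38 and 10.02 CPM at 12 h. All libraries with HGF lay below both libraries without it. The fall was 1.46-fold at 6 h (-0.55 ± 0.173, adjusted p = 0.0231) and 1.41-fold at 12 h (-0.50 ± 0.170, adjusted p = 0.0344), and 3 h did not pass (-0.23 ± 0.171, adjusted p = 0.395). The 6 h call was lost without replicate 1 at 0 h (0.148), replicate 1 at 6 h (0.1) or replicate 2 at 6 h (0.109), and the 12 h call without replicate 1 at 0 h (0.194) or replicate 1 at 12 h (0.324).

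Across all 3 times ARRDC1 in A549 missed the threshold (adjusted p = 0.0517) and passed it under DESeq2 (0.0444), with A549 fitted alone (0.0332), and without A549 replicate 2 at 12 h (0.0221), NCI-H596 replicate 1 (0.00866) or 2 (0.00852) at 12 h or both of these (0.00714). In NCI-H596, ARRDC1 read 36.4 and 37.1 CPM at 0 h, 31.6 and 36.5 CPM at 3 h, 34.1 and 36.0 CPM at 6 h, and 44.2 and 33.5 CPM at 12 h. These ranges overlapped, apart from 0 h and 6 h, and no time passed the test (adjusted p = 0.615, 0.735 and 0.648). The 12 h replicates stood furthest apart. The difference of the responses at 12 h did not pass (0.59 ± 0.220, adjusted p = 0.0665), but passed without a filter on low counts (0.59, adjusted p = 0.027). It was 0.76 with an adjusted p of 0.00308 without NCI-H596 replicate 2 and 0.80 with an adjusted p of 0.0256 without A549 replicate 2. At 6 h the difference was 0.48 ± 0.222 (adjusted p = 0.116), and it passed without NCI-H596 replicate 1 (0.0348) or 2 (0.0467) at 12 h. The F test over the differences (adjusted p = 0.113) also passed without NCI-H596 replicate 2 (0.00565) or A549 replicate 2 (0.0459) at 12 h.

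Counted over the members, 4 of 5 were called in A549 at 3 h (17.4% of all genes tested, 10.3% higher and 7.16% lower), with ARRDC2, ARRDC3 and ARRDC4 higher and TXNIP lower. At 6 h 4 of 5 were called (34.2% of all genes, 16.4% higher and 17.8% lower), with ARRDC2 and ARRDC4 higher and TXNIP and ARRDC1 lower. At 12 h 3 of 5 were called (35.1%, 16.9% higher and 18.2% lower), with ARRDC2 and ARRDC4 higher and ARRDC1 lower. In NCI-H596 the called members were mostly lower. They numbered 3 of 5 at 3 h (31.7% of all genes, 15.5% higher and 16.1% lower), with TXNIP and ARRDC4 lower and ARRDC2 higher. At 6 h TXNIP, ARRDC3 and ARRDC4, 3 of 5, were all lower (44.1%, 21.6% higher and 22.5% lower). At 12 h 2 of 5 were called (38.3%, 18.3% higher and 20.1% lower), TXNIP lower and ARRDC2 higher. The median log2 fold change of the members at 6 h was 0.01 in A549 and -0.515 in NCI-H596, beside -0.05 and -0.04 over all genes tested. Over the 3 times together, 4 of 5 members were called in A549 (40.3% of all genes), 3 with a higher mean response (19.2%) and 1 with a lower one (21.1%). Of the higher ones, ARRDC3 had a mean response of 0.17 (adjusted p = 0.0338), with 0.43 at 3 h, 0.01 at 6 h and 0.08 at 12 h. Its call was not kept in every fit with 1 library left out. In NCI-H596 3 of 5 were called (54.1%), all lower (28.5%, against 25.6% of all genes higher). The comparisons of a line share its 0 h libraries.

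The response differed between the lines at 3 h for 3 of 5 members (17.4% of all genes tested, 8.93% with a higher and 8.47% with a lower response in NCI-H596), at 6 h for 3 of 5 (30.2%, 16.4% and 13.8%) and at 12 h for 1 of 5 (24%, 13% and 11%). It differed in the F test over the 3 times for 4 of 5 (37.6%). In each call at a single time the response was lower in NCI-H596, and the genes were ARRDC2, ARRDC3 and ARRDC4, then ARRDC4 alone at 12 h. Line and time were also fitted as additive terms with edgeR, a formula that the study used with DESeq2. For time, 2 of 5 members were called (30.6% of all genes). These were TXNIP, lower (adjusted p = 0.000932), and ARRDC2, higher (adjusted p = 0.00901). ARRDC4, whose changes ran in opposite directions in the lines, was not called there (adjusted p = 0.113). ARRDC3 was not called there either (adjusted p = 0.0692), but it passed in the likelihood ratio test of DESeq2 (adjusted p = 0.049). The study also profiled cells with amplified wt MET, which are not among these libraries.

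Among neighbouring times, 1 of 5 members was called between 3 and 6 h in A549 (3.1% of all genes) and 2 of 5 between 6 and 12 h (11.6%). In NCI-H596 the counts were 1 of 5 (9.77%) and 2 of 5 (18.6%). Between the lines, 5 of 5 members differed at 3 h (80% of all genes), 5 of 5 at 6 h (81.6%) and 4 of 5 at 12 h (81.6%), shares near those of all genes. ARRDC3 was the exception at 12 h, and its call at 3 h (-0.44 ± 0.131, adjusted p = 0.00587) was lost without replicate 2 of A549 at 3 h (0.0502). TXNIP was 20.1-fold higher in NCI-H596 at 3 h (4.33 ± 0.182, adjusted p = 1.49e-11), 19.7-fold at 6 h and 11.3-fold at 12 h.

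**Figure D3:**
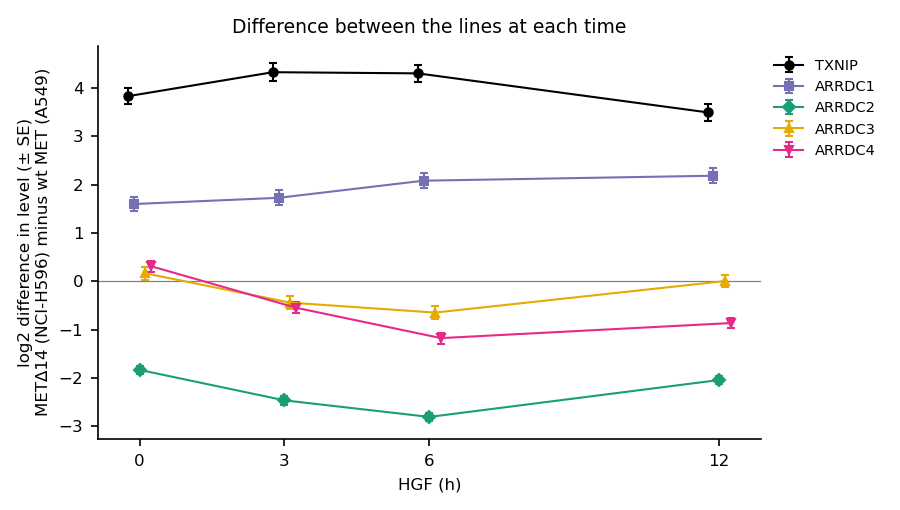
Log2 difference in level between the lines, NCI-H596 minus A549 (± SE), at each time. TXNIP stayed between 3.50 and 4.33 and ARRDC2 between -2.81 and -1.83, while ARRDC4 moved from 0.31 at 0 h to -1.18 at 6 h.

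Genes around the alpha-arrestins were grouped in lists. A gene counts as higher or lower by its mean response where the F test over 3, 6 and 12 h passed. One that moved both ways counts by the sign of that mean alone. Of all genes, 19.2% were higher and 21.1% lower in A549, and 25.6% and 28.5% in NCI-H596. Of 3 glucose-sensing transcription factor genes, 0 were called over the 3 times in A549 and 2 rose in NCI-H596 (median mean log2 fold changes -0.08 and 0.44). MLX rose 1.10 on the log2 scale at 6 h in NCI-H596 (adjusted p = 6.93e-06) and stood at -0.19 in A549 (0.265), and the interaction of line and time passed (0.000425). MLXIP, encoding MondoA, rose 0.69 at 12 h in NCI-H596 (adjusted p = 0.000379), and at 6 h alone it also passed in A549 (0.38, 0.0221). MLXIPL, encoding ChREBP, was at most 3.41 CPM in any condition mean and was not called in either line. In level, MLX at 6 h did not pass between the lines (0.09, adjusted p = 0.529).

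Of 9 other known targets of these factors, 7 were tested, with 2 higher and 1 lower in A549 and 3 higher and 2 lower in NCI-H596. KLF10, a zinc finger repressor induced by glucose and by TGF-beta, rose in A549 from 177 to 895 CPM at 3 h (2.34, adjusted p = 3.04e-11) and was -0.04 in NCI-H596 (0.757), where it fell by 0.58 at 12 h (4.79e-05). PFKFB3, which makes the activator of phosphofructokinase, rose 1.5 at 3 h in A549 (adjusted p = 4e-07). HK2, the hexokinase that makes glucose 6-phosphate, rose 1.5 at 6 h in NCI-H596 (adjusted p = 9.95e-08), from 111 to 314 CPM, and read 0.20 in A549 (0.442). G6PC3, a glucose 6-phosphatase, fell by 1.05 at 12 h in A549 (adjusted p = 2.5e-05). The median of the mean log2 fold changes of the list was -0.07 in A549 and 0.14 in NCI-H596, beside -0.05 in both lines over all genes tested.

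Glucose transporters, only some of them known as cargo of TXNIP or ARRDC4, were tested for 11 of 13 genes. Of these, 1 was higher and 6 lower in A549, and 2 higher and 7 lower in NCI-H596 (median mean log2 fold changes -0.18 and -0.54). SLC2A1, encoding GLUT1, fell by 0.65 at 6 h in NCI-H596 (adjusted p = 1.3e-05), and in A549 it rose 0.44 at 3 h (0.00174) and fell by 0.59 at 12 h (9.98e-05). Its mean response in A549 was -0.0068, so it counts as lower there although it rose first. In NCI-H596 the fructose transporter SLC2A5 fell from 15.1 to 1.11 CPM at 12 h (-3.79, adjusted p = 5.13e-06), and it had 0 CPM in every A549 library. SLC2A11 fell by 1.12 at 6 h in NCI-H596 (adjusted p = 0.00395) and by 1.02 in A549 (0.0399). SLC2A3, encoding GLUT3, read between 10.4 and 15.2 CPM in A549 condition means and was at or below the floor of 3 counts in NCI-H596.

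The thioredoxin system, which TXNIP inhibits by binding TXN, had 0 of 11 tested genes higher and 6 lower in A549, against 1 higher and 1 lower in NCI-H596 (median mean log2 fold changes -0.40 and -0.01). TXN fell by 0.69 at 12 h in A549 (adjusted p = 0.00266) and read -0.11 in NCI-H596 (0.616). TXNRD1, the cytosolic thioredoxin reductase, fell by 0.63 at 6 h in A549 (adjusted p = 5.31e-05), and in NCI-H596 it rose 0.96 at 3 h (8.12e-07) and fell by 0.71 at 12 h (1.7e-05). Its mean response in NCI-H596 was 0.19, so it counts as higher there although it ended below 0 h. In A549, TXNIP and TXN were therefore both below 0 h at 6 h, where TXN was -0.62 (adjusted p = 0.00558).

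Ubiquitin ligases that alpha-arrestins recruit came next. Of 11 genes of the NEDD4 family and its adaptors, 7 were higher and 1 lower in A549, and 6 higher and 1 lower in NCI-H596 (median mean log2 fold changes 0.37 and 0.19). ITCH, which ubiquitinates TXNIP, rose 0.71 at 6 h in A549 (adjusted p = 7.59e-06) and 0.65 in NCI-H596 (5.91e-06), with no difference called between the lines (interaction, 0.501). SMURF2 rose 1.36 at 6 h in NCI-H596 (adjusted p = 8.32e-09) and 0.65 in A549 (2.17e-05), and NEDD4L rose 1.21 at 3 h in NCI-H596 (1.64e-06) and 0.38 in A549 (0.0177). NEDD4 rose 0.64 at 6 h in A549 (adjusted p = 5.89e-05) and read 0.05 in NCI-H596 (0.702). WWP1 fell by 0.44 at 6 h in A549 (adjusted p = 0.00339), and WWP2 was not called at any time in either line (0.4 and 0.206).

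ESCRT genes, the machinery of ARRDC1 vesicles, had 6 of 12 higher and 0 lower in A549 and 5 higher and 1 lower in NCI-H596 (median mean log2 fold changes 0.24 and 0.11). VPS37B, of the TSG101 complex, rose 1.09 at 3 h in A549 (adjusted p = 1.42e-06) and 0.39 in NCI-H596 (0.00513). ARRDC1 itself was not called at 3 h in either line.

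Some of the receptors named as alpha-arrestin clients are given one by one. INSR, the insulin receptor, fell in both lines, by 1.10 at 6 h in A549 (adjusted p = 1.75e-05) and 1.06 in NCI-H596 (5.6e-06). The ARRDC3 client ITGB4, integrin beta4, fell by 1.10 at 12 h in A549 (adjusted p = 5.96e-05) and read 0.36 in NCI-H596 (0.0533), where it was called higher over the 3 times (mean response 0.20, 0.0355). MET read 1240 ± 48.5 CPM in A549 at 0 h and 369.9 ± 0.576 CPM in NCI-H596 (SD, n = 2). It rose 0.28 at 6 h in A549 (adjusted p = 0.0213) and was not called in NCI-H596 (0.204).

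Of 15 kinases and factors upstream of these genes, 5 were higher and 2 lower in A549 and 5 higher and 3 lower in NCI-H596 (median mean log2 fold changes 0.02 and 0.05). FOXO1 fell by 0.58 at 6 h in NCI-H596 (adjusted p = 0.00217) and read 0.17 in A549 (0.358). FOXO3 rose 0.62 at 3 h in A549 (adjusted p = 0.000169) and 0.33 in NCI-H596 (0.0109). FOXO4 fell in both lines at 12 h, by 1.03 in A549 (adjusted p = 0.00119) and by 1.77 in NCI-H596 (8.5e-06). MYC rose 0.63 at 12 h in A549 (adjusted p = 0.000312) and fell by 1.26 in NCI-H596 (8.62e-07). NR3C1, the glucocorticoid receptor, was not called at any time in A549 (0.278) or NCI-H596 (0.0621).

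Other genes with an arrestin fold were tested for 5 of 8, with 1 higher and 3 lower in A549 and 2 higher and 2 lower in NCI-H596 (median mean log2 fold changes -0.46 and 0.02). The visual arrestins and ARRDC5 did not pass the expression filter, and ARRDC5 had at most 1 count in any library, against a floor of 3 counts that stands for 0.129 to 0.278 CPM and covers counting error only. ARRB2 (beta-arrestin 2) fell by 0.48 at 6 h in A549 (adjusted p = 0.000863) and by 0.40 in NCI-H596 (0.00463). ARRB1 (beta-arrestin 1) fell by 1.92 at 6 h in A549 (adjusted p = 0.00169), from 2.44 to 0.639 CPM, and by 0.74 in NCI-H596 (0.0153). At 6 h ARRB1 and ARRB2 were thus below 0 h in both lines, as TXNIP was. Their courses were not alike at other times. ARRB1 in NCI-H596 read 11.06 CPM at 0 h and 11.56 CPM at 3 h. ARRB2 in A549 read 55.2 CPM at 6 h and 52.3 CPM at 12 h, while TXNIP rose between these times. ARRB1 in A549 had only 10 counts per library at 6 h.

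**Figure D4:**
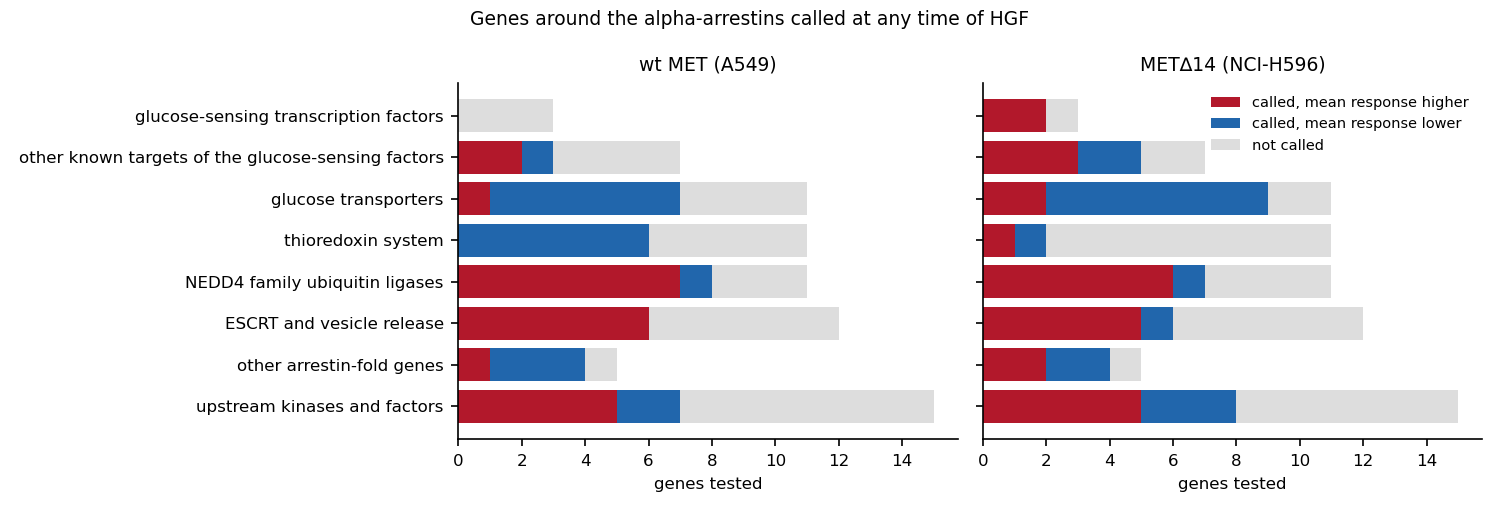
Number of genes tested in each list around the alpha-arrestins, split into genes called at any time with a higher mean response, with a lower one, and not called, in A549 (left) and NCI-H596 (right). Among 11 genes of the NEDD4 family 7 were higher in A549 and 6 in NCI-H596, and among 11 glucose transporters 6 and 7 were lower.

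Genes with a pattern like that of each member were found by Pearson correlation of the condition means of log2 CPM, each line centred on its own mean, over 8 conditions and among 8570 genes. Conditions of the same line share that line, so r is given as a description. The genes were picked for likeness over these same conditions. Their changes in the same direction thus follow in large part from the choice and are no separate evidence. SOX12, an SRY-related transcription factor, was nearest to TXNIP (r = 0.987), followed by RALGDS (0.984), an exchange factor for Ral, and ANKRD33B (0.981). SOX12 fell by 1.43 at 6 h in A549 (adjusted p = 3.29e-07) and by 1.12 in NCI-H596 (4.34e-07), beside 1.37 and 0.90 for TXNIP, which fell too. DENND5A (0.99), which activates Rab GTPases, MON2 (0.988), of endosome to Golgi traffic, and IMPA1 (0.983), inositol monophosphatase, were nearest to ARRDC2. OSBP (0.989), the oxysterol-binding protein, ZDBF2 (0.977) and CERT1 (0.977), the ceramide transfer protein, were nearest to ARRDC4. ERF (0.951), an ETS repressor that ERK controls, TTC28 (0.934) and LCORL (0.932) were nearest to ARRDC3, and ERF fell by 0.88 at 6 h in NCI-H596 (adjusted p = 6.76e-06). NUDT16 (0.983), C4orf46 (0.983) and FASTK (0.977) were nearest to ARRDC1.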

How the data were processed

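RNA was sequenced from A549 (labelled wt MET) and NCI-H596 (labelled MET∆14) at 0, 3, 6 and 12 h of HGF. Per the labels, the submitters' processing notes name STAR 2.5.0, RSEM 1.3.2 and hg38, and the authors deposited whole-number read counts per gene without normalization. Whether counting used strand is not given in the sources used here. The wt MET columns carried a slightly different line name than the sample titles and were matched on MET status, time and replicate. All columns were used (0 without a sample). The labels and titles put 2 replicates in each of 8 conditions, and a shared replicate number did not pair libraries (1 of 28 pairs of conditions had a correlation of replicate deviations over 0.1).

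The analysis used edgeR 4.0.16 under R 4.3.3, with limma 3.58.1. Genes passing filterByExpr (at least 10 counts, 15 in total) were scaled by TMM and fitted with a robust quasi-likelihood model, 1 coefficient per condition over all 16 libraries (common biological coefficient of variation 0.0868). F tests covered all 3 times, the interaction of line and time, and time in an additive model. Adjustment of p-values followed Benjamini and Hochberg over all 15067 genes, with a threshold of 0.05. CPM used TMM-scaled library sizes, log2 CPM a prior count of 2, and RPKM the union of GENCODE 44 exons. Depth per library ranged from 10158590 to 23909304 counts. The fits were tested on simulated data. Alternatives were DESeq2 1.42.0, DESeq2's size factors, no filter, at least 10 counts in every library, an absolute log2 fold change of at least 1, a block for the replicate number, each line alone and each library left out, and, added after seeing the data, both NCI-H596 12 h libraries left out. The members and lists were chosen with earlier results of these data known. The lists were written by hand, and the client receptor list's counts, 1 of its genes and the leukocyte marker list are not reported here. Besides the members and genes fixed by name, the text names up to 2 genes per list, line and direction with the largest change among called genes with an absolute log2 fold change of at least 1 whose mean log2 CPM reached 2, and the 3 genes most like each member (mean log2 CPM of at least 3). Sequences are from RefSeq (GRCh38.p14), and figures were drawn with Python 3.11.15 and matplotlib 3.10.9.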

Additional observations from a re-analysis of the deposited data

Results flagged for a closer look

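The response to HGF differed between the lines in a test of the difference itself for 4 of the 5 genes, beside 37.6% of all genes tested in the F test over the 3 times. ARRDC4 differed at all 3 times, by -0.86 at 3 h (adjusted p = 0.00189), -1.49 at 6 h (8.42e-06) and -1.18 at 12 h (0.000108), NCI-H596 minus A549 on the log2 scale. ARRDC2 differed by -0.63 at 3 h (0.00279) and -0.97 at 6 h (3.93e-05). For ARRDC3 the differences were -0.61 at 3 h (0.0337) and -0.81 at 6 h (0.00397), and the first was lost in 6 of 16 fits with 1 library left out. TXNIP passed only in the F test over the 3 times (adjusted p = 0.0266), no single time did, and the call was lost in 9 of 16 such fits.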

How the results depend on the processing

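No call of a member changed with the replicate number as a block, where 4 members were called at any time in A549, 3 in NCI-H596 and 4 for the interaction. With 1 library left out, the members called ranged from 3 to 5 in A549, 3 to 4 in NCI-H596, 3 to 5 for the interaction, 3 to 5 between the lines at 0 h and 2 to 3 for time in the additive model, and the single-time tests of responses and their differences that called a member numbered 20 to 27, against 26 with every library. Over all genes the calls then ranged from 4574 to 8221 in A549, 6245 to 10650 in NCI-H596 and 4427 to 8372 for the interaction. Requiring an absolute log2 fold change of at least 1 left 0 members in NCI-H596, 1 for the interaction (ARRDC4), 1 in the additive model (TXNIP), 6 of those single-time tests and 1 step between times. All genes called then numbered 1537 in A549, 2406 in NCI-H596, 2233 for the interaction, 7824 between the lines at 0 h and 1309 in the additive model, against 6079, 8157, 5660, 12085 and 4615. Without a filter on low counts the additive model called 4 members, adding ARRDC3 and ARRDC4, and the differences of the TXNIP responses passed at 3 h (0.48, adjusted p = 0.0292) and 6 h (0.47, 0.0235).

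Directions turned only for values that were not called, when 1 library was left out. For ARRDC3 these ran from -0.14 to 0.21 in A549 at 6 h, -0.10 to 0.27 at 12 h and -0.052 to 0.13 for 12 h against 6 h, from -0.20 to 0.034 in NCI-H596 at 12 h, from -0.36 to 0.014 for the difference of the responses at 12 h and from -0.085 to 0.12 between the lines at 12 h. For ARRDC1 they ran from -0.19 to 0.24 in A549 for 12 h against 6 h, and in NCI-H596 from -0.073 to 0.14 for 6 h against 3 h, -0.14 to 0.26 at 12 h and -0.073 to 0.33 for 12 h against 6 h, and from -0.0066 to 0.22 for the difference of the responses at 3 h. With 2 libraries per condition, the lone library left is assumed to vary like the rest. Counts of ARRDC1 were low in A549 (118 to 178), where the SE of its 6 h response was 0.173, beside 0.139 in NCI-H596. What limits its precision was not tested. Libraries left out or a changed filter moved calls near the threshold and some further from it. Without the filter, the adjusted p of ARRDC4 for time in the additive model (F test) went from 0.113 to 0.000943. The cause of these moves was not tested.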
